A study of Mus musculus with 4 samples.

Results

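The 10 genes described here encode catalase (Cat), the 3 superoxide dismutases (Sod1, Sod2 and Sod3) and the 6 peroxiredoxins (Prdx1 to Prdx6). They were taken by symbol from the gene table of the whole series, where each has 1 row, so they are 10 of 39170 rows. The table holds 4 RNA libraries of sorted islet cells from male MIP-GFP C57BL/6 mice, 6 to 8 weeks old, in which the mouse insulin promoter drives green fluorescent protein. Insulin-positive cells were sorted by their surface level of Glut2, a glucose transporter whose gene is Slc2a2, giving a high gate (Glut2H) and a low gate (Glut2L). Each gate was sorted from vehicle-injected control mice and from mice injected intraperitoneally with 200 mg/kg streptozotocin (STZ), in which diabetes was established 4 days later. STZ is an alkylating beta cell toxin that is taken up through Glut2. Each of the 4 groups has 1 library. Values are given first for control mice, Glut2H then Glut2L, and then for STZ mice, Glut2H then Glut2L. The labels give 3 mice per group, and no source used here says whether a library pools them. No spread between replicates can be had, so no difference was tested and each comparison describes these libraries.

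Superoxide is formed by the respiratory chain and by NADPH oxidases. Superoxide dismutases turn it into hydrogen peroxide: Sod1 is the copper and zinc enzyme of the cytosol, Sod2 the manganese enzyme of the mitochondrial matrix and Sod3 the secreted form. Catalase, in peroxisomes, and the peroxiredoxins, thiol peroxidases that are mostly recycled by thioredoxin, remove hydrogen peroxide. Prdx1 and Prdx2 are cytosolic, Prdx3 is mitochondrial, Prdx4 lies in the endoplasmic reticulum, Prdx5 is found in several compartments, and Prdx6 is a cytosolic enzyme with a single catalytic cysteine. Beta cells are known for low catalase among tissues.

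Promoter sequence is shown for 3 of the genes that differed at least 2-fold between the gates in both control and STZ mice, catalase and Prdx1 in one direction and Sod1 in the other. Prdx2 also did, in the direction of Sod1. It is not shown because annotated exons cover the 250 bases before its start site. Each stretch is 160 bases, 5′ to 3′ on the gene's strand, from RefSeq on GRCm38.p6, ending upstream of annotated exons. Matches to 5 motifs, searched on both strands, are in capitals. They are the CCAAT box, the TATA box as TATAAA, the GC box as GGGCGG, the AP-1 motif TGAGTCA, and the core TGACNNNGC of the antioxidant response element.
Cat, chr2:103485161-103485320, minus strand: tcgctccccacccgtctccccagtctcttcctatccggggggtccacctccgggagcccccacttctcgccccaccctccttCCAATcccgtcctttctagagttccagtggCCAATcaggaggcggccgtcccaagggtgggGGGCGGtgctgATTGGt
Prdx1, chr4:116685384-116685543, plus strand: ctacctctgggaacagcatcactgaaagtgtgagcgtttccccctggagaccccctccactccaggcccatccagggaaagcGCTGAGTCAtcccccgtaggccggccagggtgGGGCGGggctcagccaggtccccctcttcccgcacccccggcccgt
Sod1, chr16:90220594-90220753, plus strand: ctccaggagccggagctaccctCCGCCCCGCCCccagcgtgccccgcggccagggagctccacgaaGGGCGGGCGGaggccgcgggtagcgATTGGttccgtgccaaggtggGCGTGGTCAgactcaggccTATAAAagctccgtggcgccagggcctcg

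Over the 250 bases before the RefSeq start site, the catalase promoter held 4 matches to CCAAT and 1 to the GC box. The Prdx1 promoter held 2 TGAGTCA matches, 1 of which lies inside its TGACNNNGC match, with 1 TATA box and 1 GC box. Sod1 held 1 TATA box, 4 GC boxes, 1 CCAAT and 1 match to the antioxidant core. Prdx2, Prdx3, Prdx4, Prdx5, Sod2 and Cat held no match to the AP-1 motif or the antioxidant core, and the table has no entry for Sod3 and Prdx6. Of 32851 promoters of the same length, 33.8% held the CCAAT box, 12.4% the TATA box, 32.7% the GC box, 4.46% the AP-1 motif and 10.2% the antioxidant core. Such matches describe letters and are not shown to be binding sites.

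Levels are in FPKM, a fragment count scaled by transcript length and library, which allows levels to be compared between genes. Read depth cannot be had from these files. The deposited intervals of unstated level around the members' FPKM had a median half-width of 79.5% of the value. A difference is given as log2 of FPKM plus 1, and a gene is called higher or lower where it differed at least 2-fold and reached 1 FPKM in either library. The sum of FPKM ranged from 1562040 to 3428740, and the predicted gene Gm20594 alone made up 61.0% of that sum in Glut2H control and 68.5% in Glut2H STZ. Transcript of Slc2a2 did not follow the gate labels, at 8.74, 41.0, 10.8 and 33.7 FPKM, so each direction between gates is one between the libraries labelled Glut2H and Glut2L. Summed FPKM of 11 beta cell markers were 71099, 338099, 67209 and 209330, and those of 12 leukocyte markers were 3288, 110, 3617 and 147. Most of the beta cell sum is Ins2, at 57345, 294540, 52596 and 175841 FPKM, in a row that covers 32.2% of the annotated gene.

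At the deposited scale, catalase showed the widest gap of the 10 genes between the gates. With libraries scaled to the same total, its STZ difference was -1.60 on the log2 scale, smaller in size than those of Sod1 (2.25) and Prdx2 (2.14). Cat (ENSMUSG00000027187, GRCm38 chromosome 2, 103453849 to 103485160, minus strand) stood at 40.4, 3.64, 65.7 and 9.42 FPKM. Both libraries labelled Glut2H were high and both labelled Glut2L were low. The FPKM was 11.1 times higher in the library labelled Glut2H in control mice and 6.97 times higher in STZ mice, or -3.16 and -2.68 as Glut2L minus Glut2H on the log2 scale. The deposited intervals of the control pair did not overlap (9.60 to 71.3 against 0.385 to 7.01), which held for 4.15% of all genes compared together with a 2-fold lower value, while those of the STZ pair did (15.3 to 119.97 against 0.324 to 20.9). Catalase exceeded 93.0% of 21226 protein-coding genes in the Glut2H control library and 57.5% in the Glut2L control library, then 96.1% and 71.8% in the STZ libraries. Such a rank does not move with the scaling of a library.

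The catalase gap stood beside a gap in markers of some other cell types, though not of all. In both pairs, the library labelled Glut2L was the lower one by 2-fold or more for all 12 leukocyte, all 8 endothelial and all 9 stromal markers. Summed endothelial FPKM were 265, 33.8, 244 and 14.7 and summed stromal FPKM 786, 42.5, 666 and 19.6. Ptprc, which encodes the leukocyte surface protein CD45, stood at 26.7, 0.457, 32.8 and 1.10 FPKM, and Cd74, of antigen-presenting cells, at 1027, 32.4, 1305 and 46.9. The stromal matrix gene Dcn stood at 92.8, 1.16, 45.1 and 2.24. All 3 were low in both libraries labelled Glut2L, but not at 0. No leukocyte or stromal marker was listed at 0 in any library. Of 8 acinar markers that passed the filter, 0 were higher in Glut2L and 0 lower in control mice, and 8 were lower in STZ mice. Duct markers mostly went the other way, with 4 of 7 higher and 1 lower in control mice and 6 of 8 and 1 in STZ mice. Summed alpha cell FPKM were 2330, 4223, 4391 and 9976, higher in Glut2L in both pairs. Whether cells other than beta cells account for the catalase transcript in the libraries labelled Glut2H was not tested. In bulk samples, fewer cells of a type and less RNA per cell cannot be told apart.

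**Figure D1:**
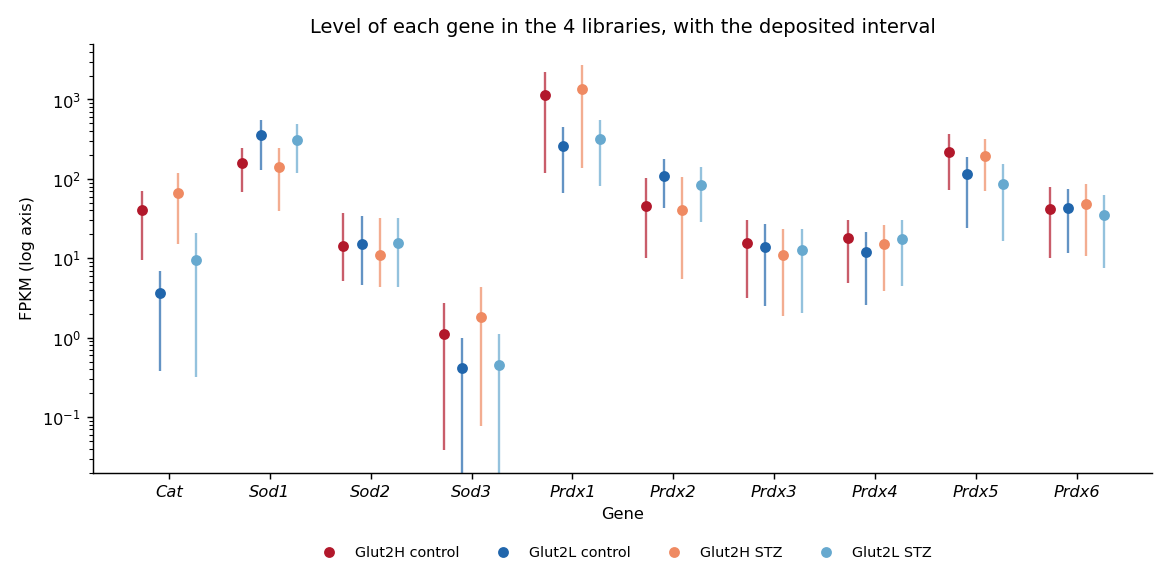
FPKM of the 10 genes (log axis) in the 4 libraries, as points, with the deposited interval as a line; lower bounds of 0 run to the bottom of the axis. Catalase sits at 40.4 and 65.7 in the libraries labelled Glut2H and at 3.64 and 9.42 in those labelled Glut2L, and Prdx1 is the highest gene in every library except Glut2L control, where Sod1 is.

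Among the dismutases, Sod1 made up most of the transcript and was higher in the libraries labelled Glut2L. Sod1 (ENSMUSG00000022982, chromosome 16, 90220754 to 90226329, plus strand) stood at 157, 359, 142 and 311 FPKM. The difference between gates was 1.19 in control and 1.12 in STZ mice on the log2 scale, and the intervals overlapped in both pairs. Sod1 exceeded 98.5% to 99.4% of protein-coding genes in the 4 libraries. Setting the median of all genes to 0 brought the STZ difference to 0.89, below 2-fold.

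Sod2 (ENSMUSG00000006818, chromosome 17, 13006846 to 13040063, plus strand), the mitochondrial enzyme, lay within a narrow range of 14.3, 15.1, 10.9 and 15.6 FPKM. The row of Sod2 spans 13007838 to 13018119, only part of that annotated gene, and its ratios rest on this row. No comparison of Sod2 reached 2-fold at the deposited scale. The ratio of Sod1 to Sod2, which does not depend on how libraries are scaled, was 10.9, 23.7, 13.01 and 19.9, higher in both libraries labelled Glut2L. Sod3 (ENSMUSG00000072941, chromosome 5, 52363791 to 52371418, plus strand), the secreted enzyme, was the lowest of the 10 genes in every library. It stood at 1.12, 0.411, 1.84 and 0.448 FPKM, with intervals that reached down to 0 in both libraries labelled Glut2L. Its differences of -0.58 and -0.97 between gates, on log2 of FPKM plus 1, were below 2-fold and moved to -1.25 and -1.83 with a pseudocount of 0.1.

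The cytosolic pair Prdx1 and Prdx2 went in opposite directions between the gates. Prdx1 (ENSMUSG00000028691, chromosome 4, 116685544 to 116700822, plus strand) stood at 1139, 261, 1357 and 314 FPKM. It was 4.36 times higher in the library labelled Glut2H in control mice and 4.32 times higher in STZ mice (-2.12 and -2.11 as Glut2L minus Glut2H on the log2 scale). Its intervals were wide, 120 to 2219 and 66.2 to 457 in the control pair, and overlapped. Prdx1 was the 33rd most abundant protein-coding row in the Glut2H control library and the 26th in Glut2H STZ, against the 184th and 115th in Glut2L control and STZ. With every library scaled to the same total, its STZ difference was -0.98, just under 2-fold.

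Prdx2 (ENSMUSG00000005161, chromosome 8, 84969587 to 84974834, plus strand) stood at 46.0, 110, 40.9 and 84.6 FPKM. The row of Prdx2 spans 84956609 to 84974834 and so begins before that annotated gene. Both libraries labelled Glut2L were higher, by 1.24 in control and 1.03 in STZ mice on the log2 scale, with overlapping intervals. The STZ difference fell below 2-fold, to 0.796, when the median of all genes was set to 0. The ratio of Prdx1 to Prdx2 was 24.8, 2.38, 33.2 and 3.71, a difference between gates of -3.38 and -3.16 on the log2 scale.

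Prdx5 followed Prdx1 in direction, with a smaller gap. Prdx5 (ENSMUSG00000024953, chromosome 19, 6906697 to 6910106, minus strand) has a row that spans 6906696 to 6921813, beyond that annotated gene. It stood at 220, 115, 194 and 87.1 FPKM, higher in both libraries labelled Glut2H. The differences were -0.94 in control mice, below 2-fold, and -1.14 in STZ mice. With all genes centred on a median of 0 the control difference was -1.08, and with libraries scaled to the same total the STZ difference was -0.018.

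The remaining peroxiredoxins lay in narrow ranges. Prdx3 (ENSMUSG00000024997, chromosome 19, 60864051 to 60874556, minus strand), which shares the mitochondrial matrix with Sod2, stood at 15.5, 14.0, 10.9 and 12.7 FPKM. The ratio of Prdx3 to Sod2 was 1.08, 0.929, 0.992 and 0.811. Prdx4 (ENSMUSG00000025289, chromosome X, 155323918 to 155340754, minus strand), which uses peroxide made during oxidative folding in the endoplasmic reticulum, stood at 17.8, 12.0, 15.1 and 17.6 FPKM. Prdx6 (ENSMUSG00000026701, chromosome 1, 161240112 to 161251219, minus strand) stood at 41.6, 42.8, 47.9 and 34.8 FPKM. None of these 3 genes, nor Sod2, was at least 2-fold different in any comparison at the deposited scale. Their gate differences changed sign with the scaling in at least 1 pair each: Prdx3 in control mice went from -0.14 to 0.64 and Prdx4 from -0.53 to 0.25 with libraries scaled to the same total. Prdx6 went from -0.45 to 0.66 in STZ mice, and Sod2 from 0.07 to -0.08 in control mice with all genes centred on a median of 0.

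Between the gates of control mice, 2 of 10 genes were called higher in Glut2L and 2 lower, where 19.7% and 18.5% of all 16234 genes that passed the filter were. In STZ mice, 2 were higher and 3 lower, where 22.9% and 17.8% of 15839 genes were. These shares lie near the background, so the number of calls does not set the 10 genes apart from other genes. The median of the 10 genes was -0.33 in control mice and -0.12 in STZ mice, beside 0.15 and 0.23 over all genes. The STZ median turned to 0.20 over members with at least 5 FPKM, and with libraries scaled to the same total the medians were 0.44 and 0.95. Of all calls, 51.6% and 56.4% were higher in the libraries labelled Glut2L, which became 78.0% and 85.1% with libraries scaled to the same total and 43.0% and 43.1% with all genes centred on a median of 0.

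The counts of members moved with the rule, and so did the background. With a pseudocount of 5, 1 member was higher in Glut2L in STZ mice (9.29% of all genes), and 0 were higher after STZ in Glut2L (3.44%). With all genes centred on a median of 0, 2 members were higher in Glut2L (15.7%) and 3 lower (20.8%) in control mice. In STZ mice, 0 were higher (16.1%) and 4 lower (21.3%) at that setting. With libraries scaled to the same total, 5 were higher (57.5%) and 1 lower (10.1%) there. With intervals that do not overlap as a further condition, 0 were higher (0.474%) and 1 lower (4.15%) in control mice, 0 higher (0.915%) and 0 lower (4.08%) in STZ mice, and 0 higher after STZ in Glut2L (0.276%).

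**Figure D2:**
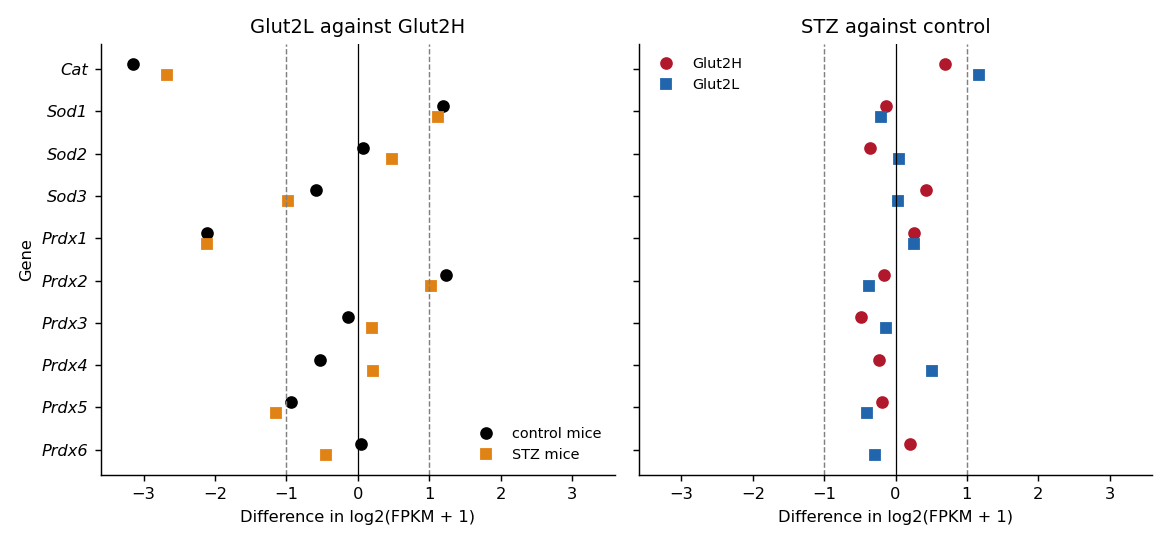
Difference in log2(FPKM + 1) of each gene, on the left as Glut2L minus Glut2H in control (circles) and STZ mice (squares), on the right as STZ minus control in Glut2H (circles) and Glut2L (squares). Dashed lines mark 2-fold; Cat and Prdx1 lie far to the left and Sod1 and Prdx2 to the right in both pairs of gates, while Cat in Glut2L, at 1.17, is the one point past a dashed line on the right.

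The makeup of the transcript pool of these 10 genes differed between the gates. Prdx1 made up 67.3%, 28.0%, 71.9% and 35.4% of their summed FPKM, and Sod1 9.27%, 38.5%, 7.55% and 35.0%. Prdx2 held 2.72%, 11.8%, 2.17% and 9.54%, and catalase 2.39%, 0.391%, 3.48% and 1.06%. Prdx5 held close to the same share throughout, 13.01%, 12.3%, 10.3% and 9.82%. The summed FPKM itself was 1693, 933, 1886 and 887, and without Prdx1 it was 554, 671, 529 and 573. The ratio of Sod1 to Prdx1 was 0.138, 1.37, 0.105 and 0.989. These shares and ratios are taken within a library and do not change with its scaling.

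**Figure D3:**
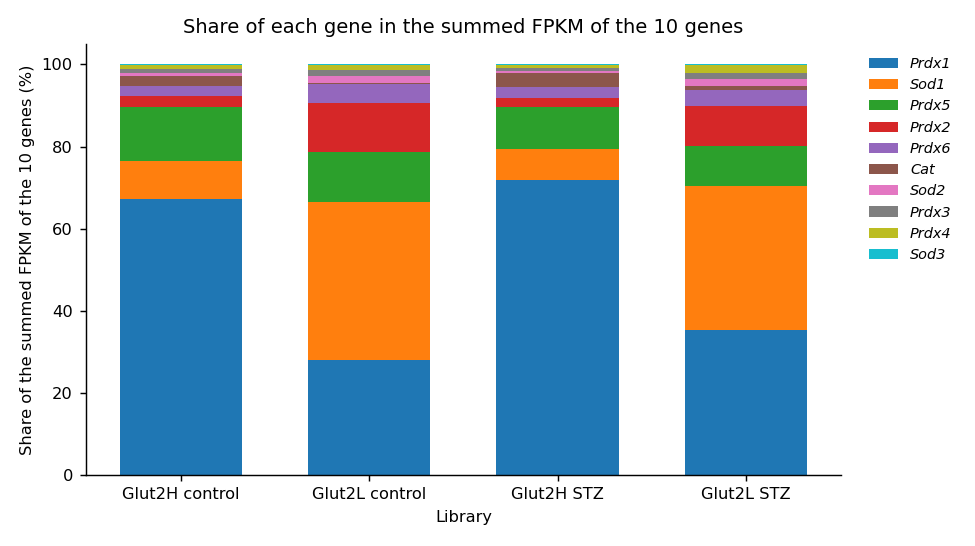
Share of each gene in the summed FPKM of the 10 genes (percent), 1 bar per library. Prdx1 fills 67.3% and 71.9% of the bars of the libraries labelled Glut2H and 28.0% and 35.4% of those labelled Glut2L, where Sod1 takes 38.5% and 35.0%.

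The order of levels was Prdx1, Prdx5, Sod1, Prdx2, Prdx6, Cat, Prdx4, Prdx3, Sod2 and Sod3 in the Glut2H control library. In the Glut2L control library it was Sod1, Prdx1, Prdx5, Prdx2, Prdx6, Sod2, Prdx3, Prdx4, Cat and Sod3. Catalase was thus 6th and 9th of 10 in the control libraries and 4th and 9th in the STZ libraries. Neighbours in the order mostly cannot be separated: the intervals of 8 of 9 neighbouring pairs overlapped in the Glut2H control library, the exception being Sod2 and Sod3, and those of 9 of 9 in each other library.

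STZ and control libraries were compared within each gate. A change within cells and a change in which cells were collected cannot be told apart here. Within Glut2H, 0 of 10 genes were at least 2-fold higher and 0 lower, where 9.62% and 13.8% of 15558 genes were. Within Glut2L, 1 of the 9 genes that passed the filter was higher, catalase, and 0 were lower, where 10.2% and 11.1% of 15602 genes were. Sod3 did not pass there, at 0.411 and 0.448 FPKM. The medians of the members were -0.15 in Glut2H and -0.14 in Glut2L, beside -0.07 and 0.00418 over all genes.

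Catalase was at 40.4 FPKM in Glut2H control and 65.7 in Glut2H STZ, and at 3.64 and 9.42 in Glut2L control and STZ. The STZ library was the higher of the pair in both gates, by 0.69 and 1.17 on the log2 scale. The intervals overlapped in both gates, and with a pseudocount of 5 the Glut2L difference was 0.74, below 2-fold. Beside it, summed leukocyte markers were 110 and 147 in Glut2L control and STZ, summed alpha cell markers 4223 and 9976, and summed acinar markers 2816 and 315, and their part in the catalase difference was not tested. The comparisons share libraries with those of the gates.

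The other genes were less apart between STZ and control. Prdx1 was 1.19 times higher after STZ in Glut2H and 1.20 times higher in Glut2L. Sod1 and Prdx2 were lower after STZ in both gates, by -0.14 and -0.16 in Glut2H and by -0.21 and -0.37 in Glut2L on the log2 scale. Prdx3, at -0.48 in Glut2H, and Prdx4, at 0.51 in Glut2L, were the largest differences after catalase within their gate. The difference of the STZ effects, Glut2L minus Glut2H, ranged from -0.49 for Prdx6 to 0.74 for Prdx4 and was 0.48 for catalase, with a median of -0.027 beside 0.067 over 17732 genes. That median also turned positive, to 0.013, over members with at least 5 FPKM.

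**Figure D4:**
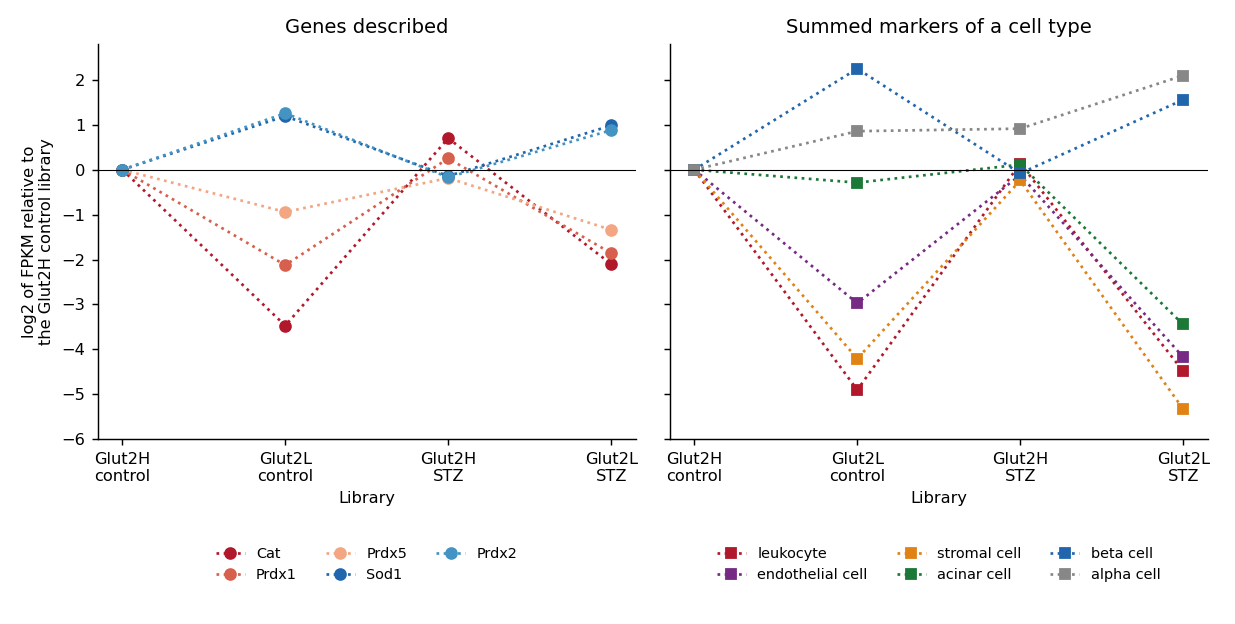
Log2 of FPKM relative to the Glut2H control library for 5 genes (left) and for the summed FPKM of markers of 6 cell types (right), in the 4 libraries; dotted lines join the points of 1 gene or list. Cat, Prdx1 and Prdx5 are low in both libraries labelled Glut2L, as are leukocyte, endothelial and stromal markers, while Sod1 and Prdx2 are high there, as are beta cell markers. Alpha cell markers are also higher in Glut2L than in Glut2H within each pair, and acinar markers are far lower in Glut2L STZ than in the other libraries.

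Genes that act with the 10 enzymes were read from 8 lists of 88 genes. In control mice 17 of the 85 that passed the filter were higher in Glut2L and 18 lower, beside 19.7% and 18.5% of all genes. In STZ mice it was 10 and 19 of 85, beside 22.9% and 17.8%. The gate counts of each list below are to be read against these shares. Within Glut2H, 3 of 85 were higher after STZ (Glrx2, Ccs and Timm23) and 0 lower, beside 9.62% and 13.8% of all genes. Within Glut2L, 0 of 84 were higher and 3 lower (Ggt1, Mt1 and Mt2), beside 10.2% and 11.1%. Both counts lie below the background share.

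Peroxiredoxins are recycled by thioredoxin and, when overoxidised, by sulfiredoxin. Of 10 genes of that system, 3 were higher in Glut2L and 1 lower in control mice, and 2 and 1 in STZ mice, with medians of 0.58 and 0.39. Txn1, the cytosolic thioredoxin, stood at 299, 96.1, 298 and 97.7 FPKM, low in both libraries labelled Glut2L. Txnip, its inhibitor, stood at 215, 626, 262 and 707, high in the same libraries. Sesn3 stood at 3.87, 12.0, 7.15 and 10.6 FPKM. Srxn1, the sulfiredoxin, stood at 97.6, 64.1, 82.7 and 105, with no common direction between the pairs.

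Glutathione synthesis and glutaredoxin genes had medians of -0.33 and -0.39, with 2 of 10 higher and 3 lower in control mice and 0 and 3 in STZ mice. Slc7a11, the cystine transporter that supplies glutathione synthesis, stood at 26.5, 6.76, 30.2 and 6.61 FPKM, in a row that covers 14.3% of the annotated gene. The glutaredoxin gene Glrx stood at 92.1, 36.6, 75.4 and 26.2. The mitochondrial glutaredoxins Glrx5, at 11.1, 26.7, 8.64 and 17.4, and Glrx2, at 7.80, 28.0, 18.6 and 18.3, were higher in Glut2L control than in Glut2H control. The row of Glrx2 covers 31.9% of the annotated gene.

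Of 12 genes of the Nrf2 pathway and NADPH supply, 1 was higher and 4 lower in control mice and 0 and 4 in STZ mice, with medians of -0.69 and -0.53. Hmox1, heme oxygenase 1 and a target of Nrf2, stood at 787, 246, 942 and 352 FPKM. Nqo1, another target, stood at 35.1, 15.3, 28.3 and 25.2. Idh2, the mitochondrial NADPH-forming isocitrate dehydrogenase, stood at 18.3, 61.4, 26.2 and 42.7 and Nnt at 4.37, 7.43, 4.58 and 6.42.

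Genes that produce superoxide or peroxide had the lowest medians of the 8 lists, -2.73 and -3.40, with 0 of the 9 that passed the filter higher and 7 lower in both pairs. Cybb, the catalytic subunit of the phagocyte NADPH oxidase, stood at 40.5, 0.348, 39.3 and 1.14 FPKM, and its partner Ncf4 at 80.8, 1.00002, 55.3 and 1.15. Ncf1 stood at 32.8, 4.43, 51.3 and 3.71, and the xanthine dehydrogenase gene Xdh at 18.1, 2.60, 20.6 and 2.58. Besides Xdh, the 6 other lower genes encode the phagocyte oxidase and its regulator Rac2, which leukocytes express.

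Metal supply of the dismutases gave 1 of the 7 genes that passed higher and 2 lower in control mice and 0 and 3 in STZ mice, with medians of -0.44 and -0.87. Ccs, the copper chaperone of Sod1, stood at 6.89, 19.6, 15.9 and 23.2 FPKM, and the copper importer gene Slc31a1 at 7.14, 8.94, 6.48 and 8.73. Slc39a14, a transporter of manganese and zinc, stood at 25.5, 7.61, 26.98 and 14.3. Cp, the copper-carrying ferroxidase ceruloplasmin, stood at 12.4, 0.586, 21.5 and 1.81.

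The lists of the enzymes' compartments were set beside the members that work there. Peroxisome genes had medians of 0.50 and 0.55, with 1 of 15 higher and 1 lower in control mice and 2 and 1 in STZ mice, beside -3.16 and -2.68 for catalase. Pex13 stood at 5.23, 11.3, 6.43 and 11.7 FPKM and Pex3 at 14.8, 9.59, 12.5 and 11.6. The thiolase gene Acaa1a was the listed gene that was at least 2-fold lower in both pairs, as catalase was, at 34.0, 15.8, 49.5 and 10.6.

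Oxidative folding genes of the endoplasmic reticulum had medians of 1.36 and 1.01, with 7 of 10 higher in control and 5 in STZ mice and 0 lower, beside -0.53 and 0.21 for Prdx4. Hspa5, the main chaperone, stood at 519, 1987, 609 and 1385 FPKM and Ero1lb, the oxidase rich in islets, at 54.6, 210.5, 54.3 and 176. The smallest control differences of that list were those of Erp44, at 48.4, 76.7, 41.1 and 61.5, and Ero1l, at 12.9, 23.2, 14.5 and 23.6. Mitochondrial matrix and import genes had medians of 0.13 and 0.26, with 2 of 12 higher in control and 1 in STZ mice and 0 lower, beside 0.07 and 0.48 for Sod2 and -0.14 and 0.20 for Prdx3. Clpp stood at 12.7, 28.4, 10.5 and 18.4 FPKM, Timm23 at 39.7, 94.0, 97.1 and 54.4, Tomm22 at 20.1, 16.0, 20.9 and 12.6 and the citrate synthase gene Cs at 28.2, 22.4, 27.5 and 19.5.

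**Figure D5:**
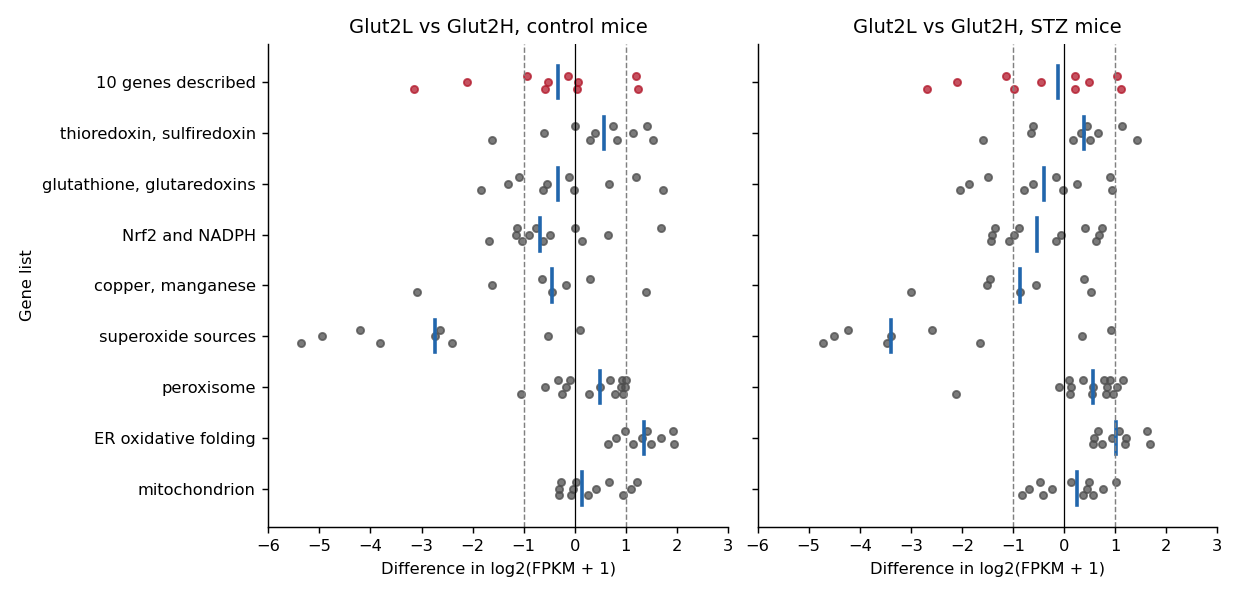
Difference in log2(FPKM + 1), Glut2L minus Glut2H, of the 10 genes described (top row) and of genes of 8 lists that passed the filter, in control (left) and STZ mice (right). Points are genes, blue bars medians and dashed lines 2-fold; superoxide sources have the lowest medians, -2.73 and -3.40, and ER oxidative folding the highest, 1.36 and 1.01.

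For the members with the highest and lowest control difference between gates, the most alike of 10127 protein-coding genes were sought by Euclidean distance between log2 values, each less their mean, over the 4 libraries. For Prdx2 they were Cabp1 (distance 0.053), Ildr1 (0.058) and Ttll5 (0.062). For catalase they were Cp (0.27), the chemokine gene Ccl6 (0.36) and the matrix protein gene Ecm1 (0.37). Likeness over 4 libraries says nothing of shared function.

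Some values could hold reads of other genes. Processed pseudogenes with at least 95% identity over at least 200 bp were found for Prdx1 (Gm7204 and Gm21399), Prdx2 (Tdpx-ps1) and Sod1 (Gm8566). Their summed FPKM reached at most 2.14 for Prdx1 and 1.39 for Sod1 in any library and 0 for Prdx2, small beside those genes, though reads assigned to the parent cannot be traced. Exons of Prdx2 overlap Junb and Rnaseh2a on the opposite strand by 173 and 154 bp, and exons of Prdx5 overlap Trmt112, also opposite, by 360 bp. The library kit keeps strand, but no source used here says whether the counting used it. Junb stood at 108, 119, 94.97 and 97.4 FPKM, Rnaseh2a at 4.85, 12.6, 18.9 and 25.6, and Trmt112 at 27.6, 28.9, 15.1 and 33.2.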

How the data were processed

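Sequencing reads of 4 total RNA libraries (TruSeq Stranded Total RNA with Ribo-Zero Gold, per the labels' protocols) went through TopHat2, SAMtools and Cuffdiff, with GRCm38 (mm10) as the build, per the submitters' processing notes. No source used here gives versions, the annotation or the library normalization. The authors' tables hold FPKM with an interval and a status per gene, per the file headers. The separate sample tables hold the same values: of 156680 compared, 0 differed.

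Log2 of FPKM plus 1 was compared between libraries over rows with at least 1 FPKM in either whose status was OK in both. The call was 2-fold. No test was run, since a group has 1 library. The calling rule was run on simulated data with planted changes larger than the call and noise far narrower than the deposited intervals. That run does not measure how reliable the calls are in these libraries. Genes were matched by Ensembl ID to GENCODE M21 on GRCm38 (37607 of 39170 rows), and copies were sought with blastn 2.17.0. Python 3.11.15, numpy 2.4.6 and pandas 2.3.3 were used. RefSeq promoters matched 8 of 10 members.

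The members, 9 pathway lists, 8 marker lists and rules were chosen with earlier results of these data known. Named were all members, the 2 highest and 2 lowest genes of each pathway list by control gate difference among those with at least 5 FPKM, and the 3 genes most like 2 members. Of the first 3 markers of each list, only those beside a member's result were named. Metallothionein genes, Ggt1, Gpx7 and overlapping genes were named after their values were seen. Rows under 300 bp (Gpx1 and Txnrd1) were left out of lists. Adgre1 was matched by ID. A gene of the peroxisome list that the rule names is not reported here.

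Alternatives were pseudocounts of 0.1 and 5, no filter or 5 FPKM, 3 scalings, intervals that do not overlap, and the sample tables.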

Additional observations from a re-analysis of the deposited data

Results flagged for a closer look

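In 4 genes an effect had opposite signs in the parts of the design, with 1 library on each side, and none of these differences was tested. For Prdx4, STZ minus control was -0.23 in Glut2H and 0.51 in Glut2L on the log2 scale, a difference of 0.74, and for the same reason the gate difference was -0.53 in control and 0.21 in STZ mice, again 0.74 apart. For Prdx6, STZ minus control was 0.20 in Glut2H and -0.29 in Glut2L, a difference of -0.49, and the gate differences of 0.04 and -0.45 are likewise -0.49 apart. For Sod2, STZ minus control was -0.36 in Glut2H and 0.04 in Glut2L, a difference of 0.41. For Prdx3, the gate difference was -0.14 in control and 0.20 in STZ mice, 0.34 apart. The deposited intervals of all 4 genes overlapped in every comparison. Prdx3, Prdx4, Prdx6 and Sod2 also changed sign between the gates under some scaling.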

How the results depend on the processing

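With an equal sum over all rows, the median of the 10 genes between gates was 0.44 in control and 0.95 in STZ mice, and 5 genes were higher and 1 lower in STZ mice; that scaling moved the median of all genes to 0.85 and 1.19. Centring all genes on their median left 0 genes called higher and 4 lower in the STZ pair. In the control pair it left 2 higher and 3 lower. With a pseudocount of 5, 1 gene was higher between gates in STZ mice and 0 after STZ in Glut2L. With intervals that do not overlap as a further condition, 0 genes were higher and 1 lower (Cat) between gates in control mice, 0 and 0 in STZ mice, and 0 higher after STZ in Glut2L. A filter of 5 FPKM, no filter, a pseudocount of 0.1, the sum without the highest rows, and the sample tables left each count within 1.5 times of its main value, and each median within the same span on the FPKM scale. Even so, the 5 FPKM filter turned the STZ gate median from -0.12 to 0.20 and the median of the difference of STZ effects from -0.027 to 0.013. The latter was also positive with libraries scaled to the same total (0.28) and with the sum without the highest rows (0.017). The direction of Cat, Prdx1, Prdx5, Sod1 and Prdx2 between gates held under every pseudocount, filter and scaling run. No paired analysis was possible because each group has 1 library. Depth is unknown, so no counting error could be given.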

Other observations

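Glutathione peroxidases and thioredoxin reductases, most of them selenoproteins, were not read as results because several of their rows stand apart. The rows of Gpx1 and Txnrd1 cover 16.2% and 0.151% of the annotated gene. Gpx4 was listed at 44373, 17175, 35496 and 18116 FPKM and Gpx3 at 7335, 29363, 9130 and 21884. Txnrd3 was listed at 201, 2771, 3669 and 612. Of these 11 genes, 7 passed the filter and were not left out, among them Gpx3, Gpx4 and Txnrd3. In control mice 3 of the 7 were higher in Glut2L and 3 lower, beside 19.7% and 18.5% of all genes. In STZ mice it was 3 and 2, beside 22.9% and 17.8%. Among forms with cysteine in place of selenocysteine, Gpx8 of the endoplasmic reticulum stood at 38.2, 0.976, 33.8 and 2.57 FPKM, with the same order of gates as catalase, and Gpx7 at 7.32, 2.75, 1.36 and 3.77.

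Metallothionein genes, which bind zinc and copper, were among the 3 listed genes that were lower after STZ in Glut2L. Mt1 stood at 975, 862, 891 and 327 FPKM and Mt2 at 1131, 725, 761 and 266. The third was Ggt1, a glutathione-degrading enzyme of secretory epithelia, at 6.94, 2.73, 3.77 and 0.317. Summed acinar markers were low in the same library, 3439, 2816, 3720 and 315 FPKM, with all 8 measured markers at least 2-fold lower after STZ in Glut2L and Amy2a5 listed at 0 in every library. Their part in these differences was not tested.

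Of the other marker lists, 11 of 11 beta cell markers were higher in Glut2L in control mice and 9 of 11 in STZ mice. For duct markers it was 4 of 7 and 6 of 8, and for alpha cell markers 1 of 7 and 2 of 6. Summed red blood cell markers were 83.2, 1.14, 0 and 0.888 FPKM.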
